A study of Homo sapiens with 4 samples.

Results

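The urea cycle and its neighbouring nitrogen enzymes were followed in Hep3B, an established human cell line from a hepatocellular carcinoma, in which RB and P53 are missing and hepatitis B virus is present. The genes are CPS1, OTC, ASS1, ASL, ARG1, ARG2, NAGS, GLUD1, GLS2 and TAT. They were chosen by the gene name that the array design gives to each probe, and all 10 were found among the 34809 gene names on the array. They are represented by 12 of the 42405 probes other than controls, as ARG1 and ASS1 have 2 probes each. Cells were transfected with a plasmid for a mock hairpin (shR-MOCK) or for 1 of 3 hairpins that target UNC50 at positions 467, 554 and 749 of its mRNA (shR-467, shR-554, shR-749), and all were selected with puromycin. UNC50 encodes a membrane protein of the Golgi apparatus. Each of the 4 cultures gave 1 array, so the 3 hairpins, which are different reagents, stand as the replicates of knockdown and the spread between mock cultures is not known. Whether a selected culture was a clone or a pool is not given in the sources used here.

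Ammonia from amino acid breakdown is made into urea in the hepatocyte, partly in the mitochondrion and partly in the cytosol. CPS1 joins ammonia and bicarbonate to carbamoyl phosphate and needs N-acetylglutamate, which NAGS makes. OTC passes the carbamoyl group to ornithine, ASS1 and ASL build and split argininosuccinate, and ARG1 splits arginine into urea and ornithine. ARG2 is the mitochondrial arginase found mainly outside the liver cycle. GLUD1 and GLS2 release ammonia from glutamate and glutamine, and TAT is the transaminase that starts tyrosine breakdown, a classical glucocorticoid-induced gene of the mature liver.

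ARG1 was lower on each of the 3 knockdown arrays and CPS1 higher on each, while OTC was higher with shR-467 and lower with shR-554 and shR-749. The coding probe of ARG1 is printed, since it gave the same order of hairpins as the other ARG1 probe and has an open frame that runs to a stop codon at its end. It is at chr6:131904989-131905048 on the plus strand of hg19, from base 967 of the mRNA. The capitals mark that stop codon.
ARG1 probe: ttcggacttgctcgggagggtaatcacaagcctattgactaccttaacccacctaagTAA

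The stretches upstream of the start of OTC, ARG1 and ARG2 are shown because they held the only matches to the 6 motifs searched, and because ARG1 and OTC differed most among the hairpins. They are 250 bases long, read from RefSeq on GRCh38.p14, all on the plus strand, at chrX:38352354-38352603, chr6:131572976-131573225 and chr14:67619670-67619919. Capitals mark the TATA box letters TATAAA in OTC and ARG1 and the cyclic AMP response element TGACGTCA in ARG2.
OTC upstream: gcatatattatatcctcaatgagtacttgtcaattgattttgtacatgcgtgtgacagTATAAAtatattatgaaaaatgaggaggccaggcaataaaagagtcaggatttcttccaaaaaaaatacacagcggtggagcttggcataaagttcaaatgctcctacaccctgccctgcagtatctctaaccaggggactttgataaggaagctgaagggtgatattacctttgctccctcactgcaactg
ARG1 upstream: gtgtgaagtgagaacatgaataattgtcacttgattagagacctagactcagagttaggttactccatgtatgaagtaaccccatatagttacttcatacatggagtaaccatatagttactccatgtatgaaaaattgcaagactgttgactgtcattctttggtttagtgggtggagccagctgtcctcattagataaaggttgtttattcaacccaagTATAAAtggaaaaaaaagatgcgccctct
ARG2 upstream: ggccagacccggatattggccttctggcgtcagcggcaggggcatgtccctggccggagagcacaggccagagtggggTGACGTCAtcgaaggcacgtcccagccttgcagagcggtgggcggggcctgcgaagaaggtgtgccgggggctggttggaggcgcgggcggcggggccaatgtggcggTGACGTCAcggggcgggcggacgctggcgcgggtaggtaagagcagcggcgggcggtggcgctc

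The table of RefSeq promoters used here gave 12 windows of 300 bases, 250 before and 50 after a start, for 9 of the 10 genes, all but TAT. The TATA letters began 29 bases before the start of ARG1 and 192 bases before that of OTC, and 11.5% of all 35116 windows held them on either strand. The cyclic AMP response element began 172 and 64 bases before the start of ARG2, and 1.85% of all windows held it. The letters TTNNGCAAT for C/EBP, CAAAGTCCA for HNF4, GTTAATNAT for HNF1 and ACANNNTGT for the glucocorticoid response element were searched on both strands. None of the 12 windows held any of them. In turn, 2.31%, 0.384%, 0.792% and 5.37% of all windows held them, so that their absence here says little. Base composition differed among the genes, from 36.7% G and C in a CPS1 window, 40.0% in that of ARG1 and 41.7% in that of OTC to 78.3% in an ASS1 window.

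The arrays were of 1 colour (Cy3) and shared 1 slide and 1 scan, with 67.6% to 73.6% of the spots well above background. Signals are those of the scanner after background subtraction, and differences are on the log2 scale after subtraction of each array's 75th percentile. The UNC50 signal was 5010 without knockdown, and the hairpins left 24.0% (shR-467), 13.7% (shR-554) and 18.7% (shR-749) of it after scaling. All 9 hepatocyte markers and the hepatoma markers AFP and GPC3 were well above background on all 4 arrays. None of the 4 fibroblast markers was well above background on every array, and COL1A1 was so on none. All 4 cholangiocyte, 3 endothelial and 3 enterocyte markers were, as were 3 of the 4 blood markers, with HBB so on no array. Some were dim. VWF stood at 0.96 to 1.73 times the lowest signal well above background, CD3E at 1.29 to 2.16 times and the hepatocyte marker CYP3A4 at 1.66 to 2.70 times. CD14 stood at 72.8 to 107.6 times, and PTPRC was not so marked with every probe. Being well above background does not by itself show that cells of a type were present. In RNA from whole cultures, fewer cells of a type and less RNA per cell cannot be told apart.

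Of the 10 genes, 9 were well above background on every array and TAT was not. The mock signals ran from 90.1 for OTC and 92.2 for GLS2, the dimmest, up to 13999.6 for GLUD1. As each probe binds with its own strength, these signals were not compared between genes. Where 4 signals are given without names, the mock array comes first and the hairpins follow by number, shR-749 last.

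**Figure D1:**
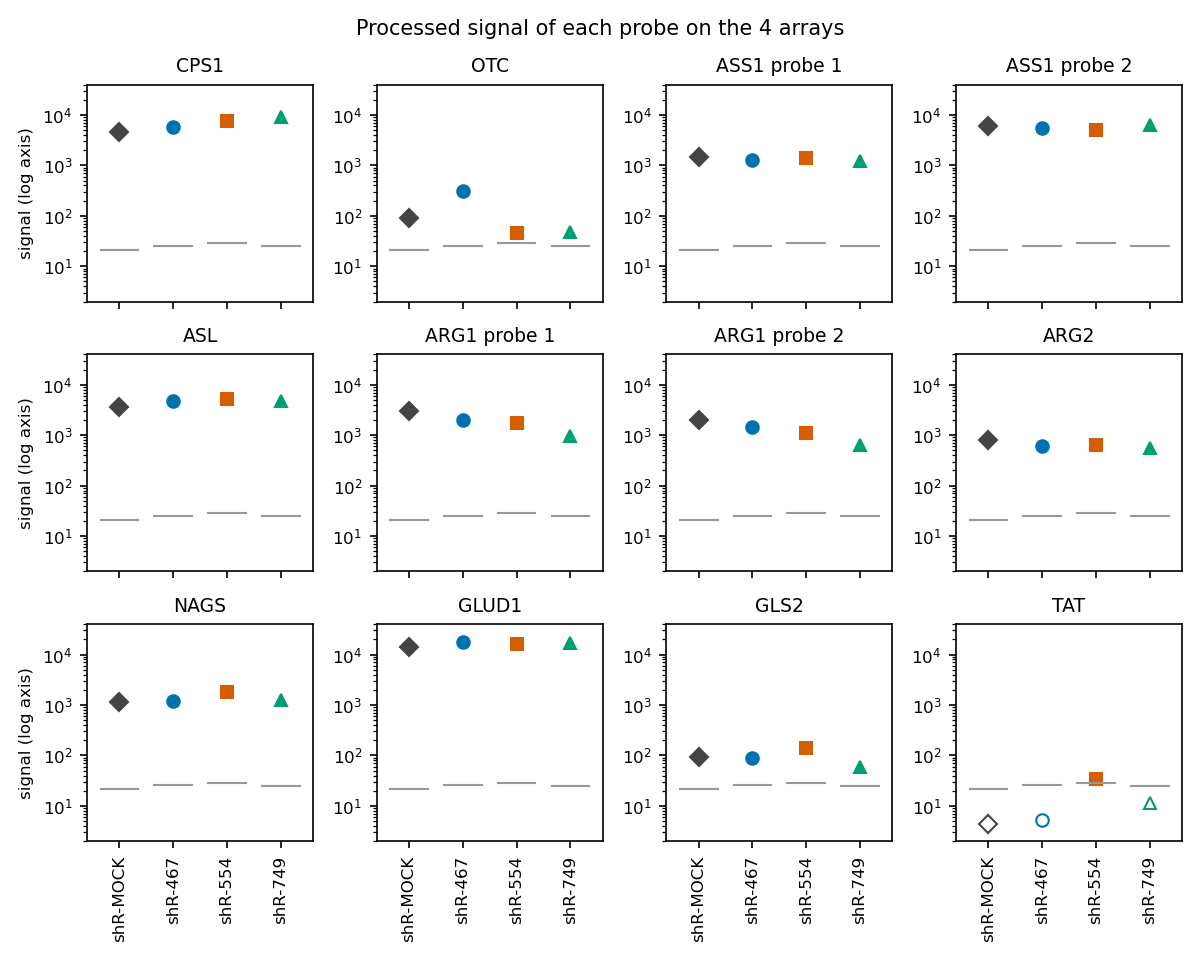
Processed scanner signal (log axis) of the 12 probes on each of the 4 arrays, with open symbols where the probe was not well above background and grey lines at the lowest signal so classed on each array. ARG1 was highest on the mock array with both probes, OTC was highest with shR-467, and TAT lay near or under the grey lines, its filled shR-554 symbol resting on 1 of its 2 spots.

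ARG1, the arginase of the liver cycle, gave the largest mean difference of the 9 genes. Its probe of 2 spots, at chr6:131905353-131905412 of hg19, read 2980 on the mock array, then 2025 (shR-467), 1755 (shR-554) and 965 (shR-749). All 3 knockdown arrays lay below the mock array, and shR-749 was lowest. After scaling these were 77.8%, 47.5% and 32.1% of the mock level, and the mean log2 difference was -1.03 ± 0.64 (SD, n = 3 hairpins).
The coding probe printed above, of 1 spot, gave signals of 1990, 1440, 1120 and 645 in the same order. It stood at 82.9%, 45.3% and 32.1% of mock, with a mean log2 difference of -1.02 ± 0.69 (SD, n = 3), so that the probes differed by less than 0.10 with every hairpin. On the printed probe shR-467 was 2.58-fold above shR-749, and on the other probe 2.42-fold, a comparison that does not involve the mock array. The ARG1 spots on 1 array differed by at most 0.03 on the log2 scale, which covers the array surface and not the culture. A range between hairpins at least as wide as that of ARG1 was found for 11.5% of the 25149 genes kept by the filter on dim probes.
Differences of at least 1.5-fold were met with shR-554 and shR-749 and not with shR-467. OTC and ARG1 were the genes of the cycle lower by as much with both of these hairpins, which 5.36% of all genes were. limma was fitted over all genes on the assumption that mock cultures would spread as the hairpins do, and the 95% interval of the ARG1 difference ran from -2.08 to 0.02, with an unadjusted p of 0.0542 and a p after Benjamini-Hochberg adjustment in limma of 0.9998.

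ARG2, the other arginase, was also lower on every knockdown array, by less. It read 811 on the mock array, then 600 (shR-467), 643 (shR-554) and 563 (shR-749), all 3 below mock. Its mean log2 difference was -0.48 ± 0.21 (SD, n = 3), from -0.24 with shR-467 to -0.65 with shR-554, and its limma interval, -1.10 to 0.15, included 0.
Of all genes kept, 20.6% were lower on every knockdown array, a share against which the direction of ARG1 and ARG2 has to be read. That share, and the 11.5% and 5.36% given for ARG1, cover genes kept through the mock array alone. ARG1 and ARG2 were well above background on every array, and these shares are not given for such genes only.

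CPS1, which commits ammonia to the cycle, was higher on every knockdown array. It read 4564 on the mock array, then 5839 (shR-467), 7472 (shR-554) and 9119 (shR-749). Scaled, these were 147%, 132% and 198% of mock, and only shR-749 passed 1.5-fold. The mean log2 difference was 0.65 ± 0.30 (SD, n = 3), with a limma interval of 0.04 to 1.25, an unadjusted p of 0.0397 and an adjusted p in limma of 0.9998. Without shR-749 the mean was 0.48, under the 1.5-fold threshold.
NAGS, whose product activates CPS1, was also higher throughout, with signals of 1144, 1209, 1780 and 1254 across the arrays. Its mean log2 difference was 0.24 ± 0.11 (SD, n = 3), the narrowest spread of the 9 genes, and 15.3% of all genes had a range between hairpins as narrow or narrower. Its limma interval of -0.28 to 0.76 included 0. Of all genes kept, 17.5% were higher on every knockdown array.
Some hepatocyte markers were higher together with CPS1. APOA1, TTR and FGB, 3 of the 9 markers, were at least 1.5-fold higher with every hairpin, as 0.537% of all genes were. ALB and AHSG were higher throughout by less, APOB, TF and SERPINA1 were each lower with 1 hairpin, and CYP3A4 with 2. The enterocyte marker SI also passed with every hairpin. The summed linear level of the 9 hepatocyte markers, relative to the 75th percentile, was 481 on the mock array against 691 (shR-467), 564 (shR-554) and 577 (shR-749). This sum weighs bright markers most, such as ALB, whose mean log2 difference was 0.25 ± 0.06 (SD, n = 3). No hepatocyte marker was 1.5-fold lower on average, and the part of these markers in the CPS1 and ARG1 differences was not tested.

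OTC, which makes citrulline in the mitochondrion, had the widest range between hairpins. Its 2 spots read 100 and 81.2 on the mock array, 332 and 283 with shR-467, 45.1 and 46.5 with shR-554, and 38.8 and 58.9 with shR-749. The spots of the shR-467 array lay above all others and those of shR-554 and shR-749 below those of the mock array. Scaled, OTC was 3.90-fold higher than mock with shR-467 and stood at 40.9% of mock with shR-554 and 52.6% with shR-749.
The shR-467 array was 9.51-fold above the shR-554 array and 7.41-fold above the shR-749 array. Only 0.334% of all genes had as wide a range between hairpins, and 0.557% were at least 1.5-fold higher with shR-467 while at least 1.5-fold lower with both others, a pattern looked up after its values were seen. The mean log2 difference was -0.08 ± 1.78 (SD, n = 3), which describes none of the arrays. The UNC50 signal was reduced by all 3 hairpins, and shR-467 left the most of it. That signal came from 1 spot, of a probe that starts at base 431 of the mRNA, nearest to the shR-467 target. Whether the UNC50 signal left bears on the order of OTC was not tested.
OTC was dim, at 1.62 and 1.91 times the lowest signal well above background with shR-554 and shR-749. After normexp background correction and quantile normalization, the log2 differences were 1.40, -0.55 and -0.38 for shR-467, shR-554 and shR-749, so that the lower values no longer reached 1.5-fold and the mean turned to 0.16. GATM, an arginine-using enzyme of creatine synthesis, had a like order, at 0.39, -1.13 and -1.03.

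ASS1 and ASL, the argininosuccinate steps, stayed within 1.5-fold on average. ASL had signals of 3624, 4805, 5100 and 4800 across the arrays, higher than mock with every hairpin, and a mean log2 difference of 0.39 ± 0.21 (SD, n = 3) with a limma interval of -0.13 to 0.92. The array annotation gives no position for the ASL probe. ASS1, with its probe of 1 spot at chr9:133376601-133376660, had signals of 5960, 5570, 5000 and 6250 and a mean difference of -0.14 ± 0.37. Its other probe, of 2 spots at chr9:133342120-133342179, gave 1445, 1285, 1410 and 1210 and a mean of -0.20 ± 0.20. The ASS1 probes lay on opposite sides of 0 with shR-749, at 0.06 and -0.27, where the 2 spots of the latter differed by 0.52.

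GLUD1, GLS2 and TAT stand beside the cycle. GLUD1 had signals of 13999.6, 17348, 16449 and 16597 across the arrays and a mean log2 difference of 0.22 ± 0.29 (SD, n = 3). The GLUD1 probe is annotated also to a transcript of its close copy GLUD2, so its signal may hold both, and the probe named for GLUD2 differed by 0.29 ± 0.38. GLS2 had signals of 92.2, 87.8, 143 and 59.6, and its mean of -0.07 ± 0.51 covers a difference of 0.32 with shR-554 and of -0.64 with shR-749. Its limma interval, -1.17 to 1.04, is too wide to show whether it differed.
TAT was at background. Its 2 spots read 4.26 and 4.44 on the mock array, 5.14 and 5.26 with shR-467, 14.0 and 9.47 with shR-749, and 10.5 and 110 with shR-554, where the last spot alone was well above background. The lowest signal so classed was 21.2 to 28.3 on the 4 arrays. The TAT probe was left out by the filter and no difference is given for it.

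**Figure D2:**
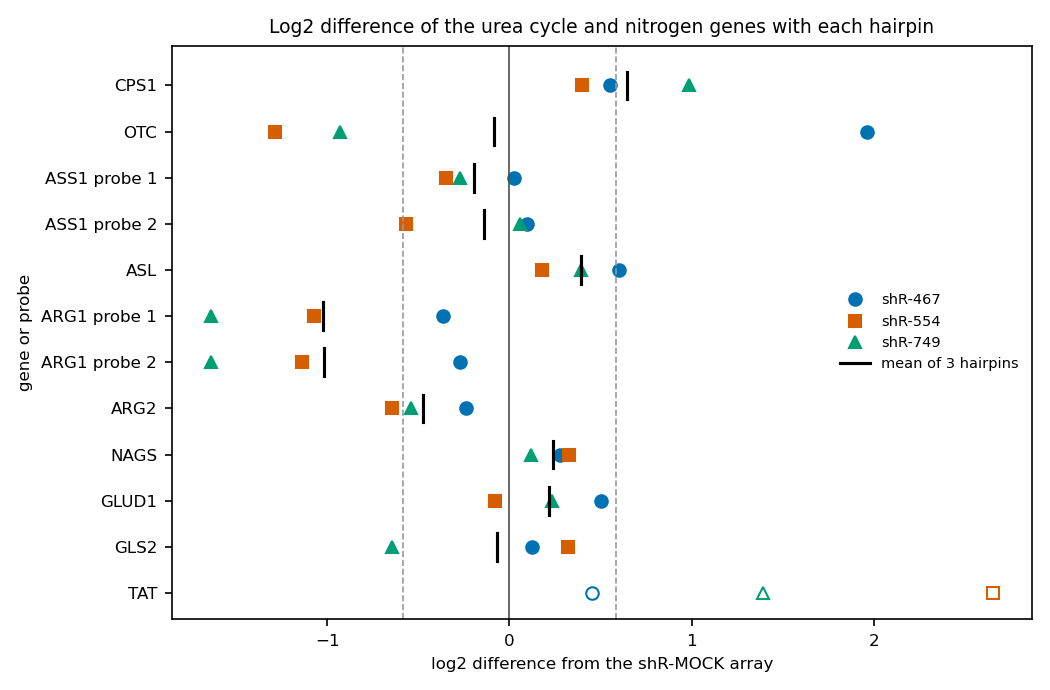
Log2 difference from the mock array for each of the 12 probes with each hairpin (symbols), their mean (black bars) and the 1.5-fold limits (dashed lines), with open symbols and no bar for TAT, whose mock signal was at background. Both ARG1 probes show the same order of hairpins, OTC spans 3.25 from shR-554 to shR-467, and CPS1 lies above 0 with every hairpin.

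Counted together, 2 of the 9 genes kept by the filter differed by at least 1.5-fold on average, CPS1 higher and ARG1 lower. Over all genes kept this share was 9.98%, with 2.29% higher and 7.69% lower, and it was 5.27% when genes had to be well above background throughout, as these 9 were. Of the genes counted among all those kept, 77.1% were lower. This share was 55.5% among genes well above background throughout. It was 52.5% with normexp and quantile normalization and 59.8% with dim signals set to a floor. None of the 9 passed 1.5-fold the same way with every hairpin, which 1.77% of all genes did (0.537% higher and 1.23% lower). The median of the mean log2 differences was -0.07 over the 9 genes and -0.03 over all genes, and the median range between hairpins was 0.59 against 0.48. After adjustment limma called 0 of the 9 at 0.05, and 0 of all 25149 genes (0%). At an unadjusted p under 0.05 it called 1, CPS1, against 1.51% of all genes. With 1 mock array against 3, an exact permutation test cannot give a p below 0.25. UNC50 itself, with a mean log2 difference of -2.45 ± 0.40 (SD, n = 3 hairpins), was not called after adjustment either. The lack of calls therefore cannot show that a gene stayed the same.

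Each hairpin gave its own profile. With shR-467, OTC and ASL were at least 1.5-fold higher and no gene was as much lower, against 7.29% higher and 6.77% lower among all genes. With shR-554, OTC, ARG1 and ARG2 were at least 1.5-fold lower and none higher, against 16% lower and 4.41% higher. With shR-749, CPS1 was higher and OTC, ARG1 and GLS2 were lower, against 5.41% higher and 10.4% lower.

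The other genes of nitrogen handling were taken from 5 lists of 65 genes, of which 64 were kept. On average 2 were at least 1.5-fold higher and 4 lower, a total of 6 of 64 that is near the 9.98% of all genes. The median difference of the 64 was 0.065. When genes had to be well above background on all 4 arrays, 5 companion genes passed, beside 5.27% of all genes. None of the 12 genes for transport and bicarbonate was higher and 1 was lower, AQP9, a channel for glycerol and urea, which was kept through the mock array alone, at a signal of 21.0 where 21.2 was the lowest signal of a spot well above background, so that no fold is given and its count as lower says little. The mitochondrial carriers of the cycle differed by 0.19 ± 0.10 (SD, n = 3) for SLC25A13, which exports aspartate, and by -0.20 ± 0.48 for SLC25A15, which imports ornithine. Of the 7 kept genes for glutamine, glutamate and transamination none passed 1.5-fold. GLUL, glutamine synthetase, differed by 0.18 ± 0.39.
Of 13 genes for ornithine, proline, polyamines and creatine, GATM alone passed, at -0.59 ± 0.85. OAT, ornithine aminotransferase, differed by 0.39 ± 0.20 and was higher with every hairpin. Of 19 genes of amino acid breakdown, 2 were lower. TDO2, which opens the tryptophan ring, was the only gene of the 64 to pass with every hairpin, against 1.77% of all genes, with signals of 1840 on the mock array, then 908 (shR-467), 1025 (shR-554) and 1090 (shR-749). Its mean log2 difference was -0.92 ± 0.21 (SD, n = 3), with an unadjusted p of 0.00775 and an adjusted p in limma of 0.9998. AASS, the first enzyme of lysine breakdown, differed by -0.66 ± 0.36.
Of 13 regulators, CREB3L3, a membrane-bound factor of the liver, was higher by 0.76 ± 0.21, between 0.58 and 0.99 with the 3 hairpins. It passed 1.5-fold with shR-467 and shR-749 and barely missed it with shR-554, at 1.4999-fold. GCGR, the glucagon receptor, had signals of 143, 193, 98.6 and 1185 across the arrays, so that its mean of 0.94 ± 1.96 came from shR-749. HNF4A and CEBPA, factors of hepatocyte identity, differed by 0.20 ± 0.36 and 0.09 ± 0.20. The HNF4A probe was dim, with a mock signal of 108, at 4.52 to 5.69 times the lowest signal well above background over the arrays. AQP9, GATM, AASS, CREB3L3 and GCGR were named after their values were seen.

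**Figure D3:**
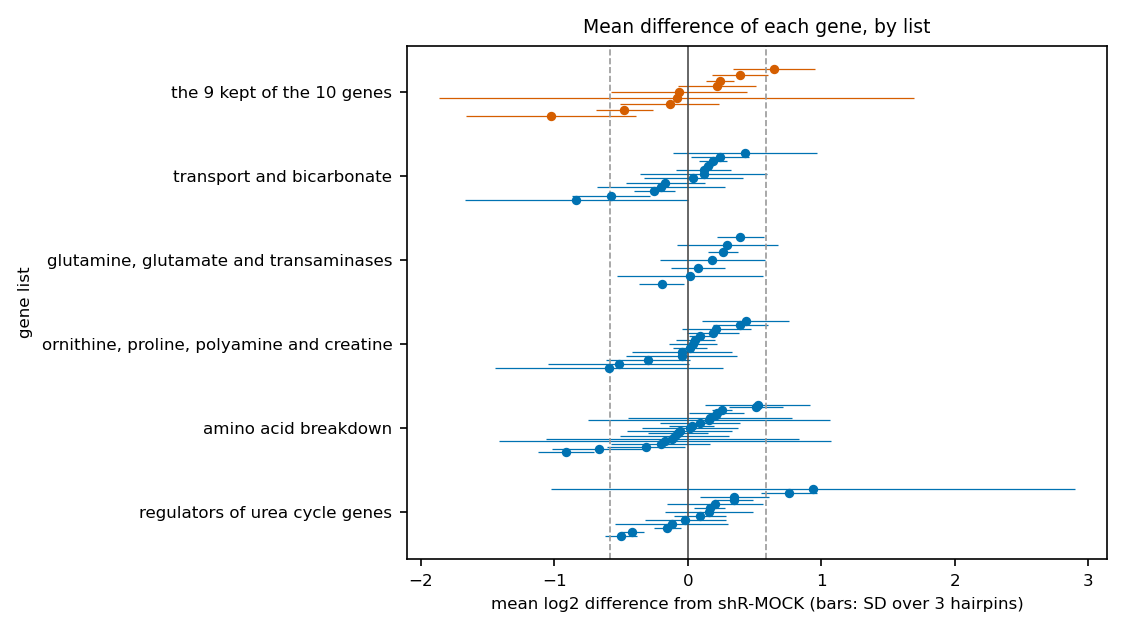
Mean log2 difference from the mock array of each kept gene (points), with the SD over 3 hairpins (bars) and the 1.5-fold limits (dashed lines), by list. The widest bars belong to OTC and to GCGR, and ARG1 is the lowest point of all lists at -1.03.

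Among the 21487 other genes well above background on all 4 arrays, those whose 3 differences lay nearest to those of ARG1, by Euclidean distance on the log2 scale, were TDGF2 at 0.13, COL9A3 at 0.20 and RPS12 at 0.27. Of the other 8 kept genes of the cycle and its neighbours, ARG2 was nearest, at 1.19, and ranked 577. CPS1 lay at 3.15.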

How the data were processed

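Spot intensity, raw and after background subtraction, came from Agilent Feature Extraction 10.7.1.1 as deposited for each array. The authors also gave a table of log2 values. It matched quantile-normalized probe means with a median absolute difference of 0.00106. Its medians were 6.38 on each array, and it was used as an alternative.

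The processed intensity was taken as log2 minus the 75th percentile of the array, without spots marked as outliers, and averaged by probe. A probe was well above background where at least 50% of its spots were so marked, and was kept if so without knockdown or with all 3 hairpins. A gene was read from its kept probe with the highest mean. Genes were counted at 1.5-fold, the threshold of the methods, and tested with limma 3.58.1 (trend, Benjamini-Hochberg, 2 residual and 4.98 prior degrees of freedom). Among probes of 10 spots the median SD between spots was 0.041 to 0.053 on the log2 scale at signals over 1000 and 0.293 to 0.358 under 100.

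The 10 genes and all lists were chosen with earlier results of these data known. All probes of the 10 genes are named, with fixed companions and those that passed 1.5-fold with every hairpin. A companion and a probe sequence are not reported here. Gene names are those of the array, probe positions are on hg19 and promoter positions on GRCh38.p14. R 4.3.3, Python 3.11.15, numpy 2.4.6, pandas 2.3.3 and matplotlib 3.10.9 were used.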

Additional observations from a re-analysis of the deposited data

How the results depend on the processing

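Over the alternatives the mean log2 difference of ARG1 lay between -1.36 and -0.72 and that of CPS1 between 0.48 and 0.77, with the ends of both set by which hairpin was left out. The mean of OTC, -0.08, was -1.11 without shR-467 and turned positive without shR-554 (0.52), without shR-749 (0.34) and with normexp and quantile normalization (0.16). The sign also turned for ASS1 (0.08 without shR-554) and GLS2 (0.22 without shR-749). The number of genes at least 1.5-fold different on average was 2 and became 1 at a threshold of 2-fold, which 2.73% of all genes passed, and 3 without a filter on dim probes, where TAT joined at 15.4% of all genes. With each hairpin left out it ranged from 1 to 4, with 1 without shR-749 and 4 without shR-467, where OTC and ARG2 joined at 14.8% of all genes. The number that passed with every hairpin was 0 and ranged from 0 to 2 in the same way, since without shR-467 OTC and ARG1 passed, against 6.66% of all genes. Of the companion genes 6 passed on average, 3 with normexp and quantile normalization (2.14% of all genes) and 0 at 2-fold (2.73%). The count was 9 without shR-467 (14.8% of all genes), 8 without shR-554 (9.37%) and 4 without shR-749 (11.3%). For the count with every hairpin, fewer hairpins must pass by construction when 1 is left out. Beyond that, the cause of these shifts was not tested. The share of all genes at least 1.5-fold different on average was 9.98%, and 2.14% with normexp and quantile normalization and 6.11% with dim signals set to a floor, the lowest signal well above background. limma called 0 of the 9 genes under every alternative, and neither limma without the trend, whose lowest unadjusted p was 0.110, nor the methods' t-test, whose lowest was 0.191, called any at an unadjusted p under 0.05. In limma with quantile normalization, and with the authors' values, none of the 9 reached an unadjusted p under 0.05 either. A block for slide or scan was not run, as all arrays shared 1 slide and 1 scan. No paired analysis was possible because there was 1 mock array and the labels give the hairpins no shared replicate numbers. Low signal limits OTC, GLS2 and TAT.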
